A study of Mus musculus with 22 samples.

Results

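The haemoglobin and red cell genes described here were the 11 rows of the count tables named Hba- or Hbb- or Alas2, out of 24421 rows, and were chosen by name as a gauge of blood left in the tissue. They comprised 10 haemoglobin rows and Alas2. Total RNA of the right brain hemisphere was sequenced in 22 mice of the inbred strain C57BL/6JOlaHsd, in 4 groups: 7 dominant males, 7 submissive males, 4 dominant females and 4 submissive females. Rank was set in the tube test at 10 to 12 weeks of age, in which cage mates meet in a narrow tube and the one pushed back loses. Each dominant mouse and the submissive mouse of the same number shared a cage according to the library names, although female replicates 3 and 4 carried group names there, and the study's methods describe regrouped females. Mice were decapitated under isoflurane, the hemispheres were placed in a stabilizing solution, and no perfusion is named in the methods. Both tables held all 11 rows, the male table with 14 libraries and the female table with 8. Between 12403943 and 16488762 reads per library were counted on genes. In all groups the 5 neuronal markers were expressed, with summed levels of 4201 to 5066 CPM (read counts relative to the TMM-scaled library total) per library.

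Haemoglobin is the oxygen carrier of red blood cells and is assembled from alpha and beta globin chains, each holding one haem group. In the mouse the alpha cluster on chromosome 11 carries the embryonic Hba-x and the adult Hba-a1 and Hba-a2, and the beta cluster on chromosome 7 carries the embryonic Hbb-y, Hbb-bh1 and Hbb-bh2 beside the adult genes. The adult beta genes are named Hbb-bs and Hbb-bt in C57BL/6 mice and Hbb-b1 and Hbb-b2 in strains with another haplotype. Alas2 encodes the erythroid aminolevulinate synthase, the first and rate-controlling enzyme of haem synthesis in developing red cells, while other tissues use Alas1. Red cells lose their nucleus but young ones, the reticulocytes, still carry RNA, so their transcripts can appear in RNA from a tissue that holds blood. Cldn5, a tight junction protein of the endothelial cells that line brain vessels, served as the vascular reference.

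The adult globin genes come as near-identical copies. The stretches in which the copies of a pair differ are shown because a coding read without the differing base matches both copies. A read that holds the differing base can still fall on rows with shared exons, as given below. The coding sequences of Hbb-bs and Hbb-bt are each 444 bases long and differ at 1 base (99.8% identity), and those of Hba-a1 and Hba-a2 are each 429 bases long and also differ at 1 base. Of the 360 windows of 85 bases, the read length, in the coding sequence of either beta gene, 332 occurred in the other beta gene and 28 in no other gene. Of the 345 windows of either alpha gene, 296 occurred in the other alpha gene and 49 in no other gene. The 85-base windows below, from a GENCODE annotation of mm10, hold the differing base of each pair in capitals.
Hbb-bs, chr7:103826665-103826749, minus strand: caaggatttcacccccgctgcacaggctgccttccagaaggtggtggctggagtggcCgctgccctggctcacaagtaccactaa
Hbb-bt, chr7:103812656-103812740, minus strand: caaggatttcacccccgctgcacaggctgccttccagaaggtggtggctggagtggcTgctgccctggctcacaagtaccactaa
Hba-a1, chr11:32284301-32284385, plus strand: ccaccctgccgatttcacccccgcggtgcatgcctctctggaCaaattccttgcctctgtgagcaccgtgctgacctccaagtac
Hba-a2, chr11:32297118-32297202, plus strand: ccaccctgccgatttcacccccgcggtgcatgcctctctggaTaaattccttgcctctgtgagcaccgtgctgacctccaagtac

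All 6 adult globin rows, Hba-a1, Hba-a2, Hbb-bs, Hbb-bt, Hbb-b1 and Hbb-b2, were listed at 0 counts in all 22 libraries. These rows also shared their exons with one another in the tables. The rows of Hba-a1 and Hba-a2 each held 6 exon intervals, those of both loci, and 1112 bases were common to them, out of 1118 in Hba-a1 and 1126 in Hba-a2. Hbb-bt and Hbb-b2 had the same 630 exon bases, at chr7:103812524-103813923. Hbb-bs and Hbb-b1 had 630 bases in common out of 639 and 631, at chr7:103826523-103827928 and chr7:103826532-103827929. Between 0 and 14 bases of each adult row belonged to it alone, fewer than the 85 bases of a read.

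Rows that share exons were at 0 far beyond the globins. Of 424 rows whose every exon base lay in another row on the same strand, 424 (100%) were at 0 in all 22 libraries. Of rows with 98% or more but not all of their bases shared, 58 of 71 (81.7%) were at 0, and of those with 50 to 98% shared, 102 of 211 (48.3%). Among the 21124 rows sharing no base with another row on either strand, 3106 (14.7%) were at 0. Among the 401 rows with some but under 50% of their bases shared, 54 (13.5%) were at 0. Of 48 rows covered in full on the opposite strand and not on their own, 17 (35.4%) were at 0, and their median total was 1 count over the 22 libraries, against 1371 for rows that share no base. The listed 0 of the adult globins therefore sets no upper limit on their transcripts in these hemispheres, and alpha to beta ratios, shares of reads and comparisons by rank, cage or table could not be made for them. How reads overlapping more than one gene, or mapping to more than one place, were handled in the counting is not given in the sources used here.

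**Figure D1:**
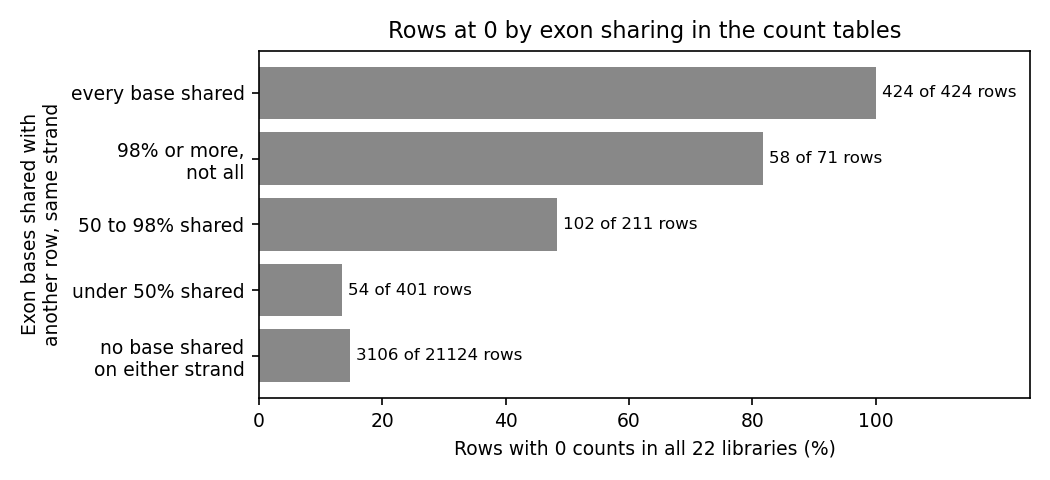
Share of rows with 0 counts in all 22 libraries (horizontal axis, percent) for classes of rows by the part of their exon bases shared with another row on the same strand (vertical axis). Bars reach 100% for the 424 wholly shared rows and 14.7% for the 21124 rows that share no base on either strand.

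The 4 embryonic globin rows shared no exon base with another row, so their counts can be read. Hba-x (chr11:32276600-32278115, plus strand), Hbb-bh1 and Hbb-bh2 were at 0 in every library. A count of 0 allows up to 3 counts, here 0.182 to 0.242 CPM per library, a limit that covers counting error only. Hbb-y (chr7:103851754-103853207, minus strand), the embryonic epsilon-type beta globin, had 6 counts in all, in 4 libraries, with at most 2 in a library. These were Dominant male 1 with 1 count, Submissive male 4 with 2, Submissive male 6 with 1 and Submissive female 4 with 2. No rank or table could be compared at this depth.

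Alas2 was thus the one member of 11 that passed the expression filter and could be tested. The row spans chrX:150547417-150570622 on the plus strand in 12 exon intervals of 1979 bases. Of these, 29 overlapped the microRNA gene Mir3620 on the opposite strand and none overlapped a row on the same strand. The strand setting of the counting is not stated. It had 39 to 137 counts per library and 1761 in all. On the scale of CPM per kilobase of exon, mean Alas2 was 3.21 in males and 1.97 in females, against 20.4 in either sex for Alas1, the housekeeping form of the enzyme, and 22.3 and 20.2 for Cldn5.

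In males, the Alas2 levels of the ranks overlapped and no rank difference was detected. Dominant males ranged from 4.82 to 9.33 CPM with a median of 6.04 (mean 6.52 ± 1.57, SD, n = 7), and submissive males from 4.85 to 8.0 CPM with a median of 5.73 (6.18 ± 1.25, SD, n = 7). The groups overlapped over almost their whole range. In these bulk samples fewer cells with Alas2 RNA and less Alas2 RNA per cell cannot be told apart, here or in any other comparison. Whether red cells were the source of the Alas2 counts was not tested. The highest values were those of Dominant male 5 at 9.33, Submissive male 6 at 8.0, Submissive male 2 at 7.79 and Dominant male 1 at 7.67 CPM. The dominant mouse was the higher one in 4 of 7 cages, with ratios of dominant to submissive from 0.602 in the cage of replicate 6 to 1.76 in that of replicate 5.

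The edgeR log2 fold change of dominant against submissive males was 0.08 (SE 0.147, 95% interval -0.23 to 0.39), with an adjusted p of 1.00. Of 14737 genes tested, 0 (0%) passed an adjusted p of 0.05 in edgeR and 0 in DESeq2, and 194 had an unadjusted p under 0.05. An exact permutation test of log2 CPM, two-sided, gave p = 0.690, and over within-cage differences p = 0.688. Without Dominant male 5 the log2 fold change was -0.03. In the same comparison Cldn5 differed by 0.02 (SE 0.132) on the log2 scale.

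In females, Alas2 was 1.57-fold higher in dominant mice, with no overlap of the groups, but the difference missed the threshold over all genes. The dominant females had 5.99, 4.28, 3.86 and 4.97 CPM in replicates 1 to 4 (mean 4.77 ± 0.928, SD, n = 4). The submissive females had 3.78, 3.19, 2.56 and 2.56 CPM (3.02 ± 0.584, SD, n = 4). The lowest dominant value, 3.86, stood just above the highest submissive value, 3.78, and every dominant mouse was above its own cage mate, by 1.58, 1.34, 1.51 and 1.94 times. All genes tested set the scale for this: in 3.36% of 14865 genes every dominant female lay above every submissive one, and in 9.77% the dominant mouse was higher in all 4 cages.

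The log2 fold change in females was 0.65 (SE 0.163, 95% interval 0.31 to 0.99), with an unadjusted p of 0.00073 and an adjusted p of 0.149 in edgeR. Alas2 took place 72 by p among the 14865 genes, of which 14 (0.0942%) passed the adjusted threshold and 10.5% had an unadjusted p under 0.05. With the cage as a block, 36 genes passed and the adjusted p of Alas2 was 0.0585. Without the expression filter its adjusted p was 0.0398, below the threshold, and over all alternatives it ran from 0.0398 to 0.995. The exact permutation test, two-sided, gave p = 0.0286 on log2 CPM, the smallest that 4 against 4 can give, and p = 0.125 over the 4 within-cage differences, likewise the smallest possible. One library, Submissive female 3, stood apart in some pituitary genes, though not in Lhb or Tshb. It had 179 counts of prolactin (Prl) against at most 9 in any other library. Without that library the log2 fold change of Alas2 was 0.58 (adjusted p = 0.272 in edgeR). Cldn5 differed by 0.09 (SE 0.0763, adjusted p = 0.730 in edgeR), with groups that overlapped.

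**Figure D2:**
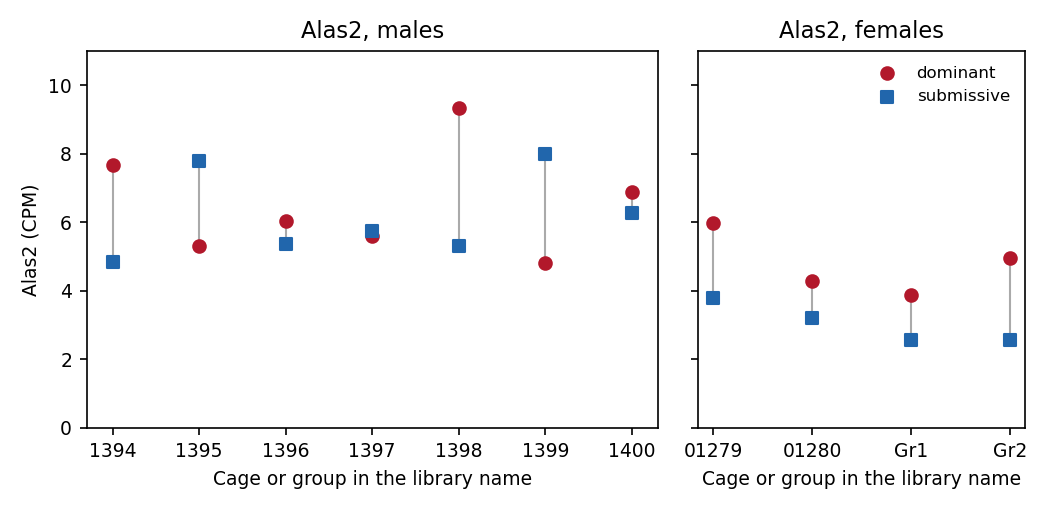
Alas2 in CPM (vertical axis, from 0) for the dominant (red circle) and the submissive mouse (blue square) of each cage, joined by a line, in males (left, 7 cages) and females (right, 4 cages), with cages named as in the library names. The dominant mouse is higher in 4 of 7 male cages and in 4 of 4 female cages.

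The rank effects in females and males differed by 0.58 on the log2 scale (SE 0.255, 95% interval 0.05 to 1.10), with an unadjusted p of 0.0319 and an adjusted p of 0.999 in edgeR. In this interaction 0 of 15233 genes (0%) passed the adjusted threshold in edgeR, 0 in DESeq2, and 505 had an unadjusted p under 0.05. A difference between the sexes in the rank effect on Alas2 was thus not shown.

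Between the tables, Alas2 was lower in females. The 8 females ranged from 2.56 to 5.99 CPM with a median of 3.82 (3.90 ± 1.18, SD), and the 14 males from 4.82 to 9.33 with a median of 5.89 (6.35 ± 1.37, SD). Of the 8 females, Dominant female 1 at 5.99 and Dominant female 4 at 4.97 CPM lay within the male range and the others below it. The log2 fold change of females against males was -0.74 (SE 0.126, 95% interval -1.0 to -0.48, adjusted p = 4.51e-05 in edgeR), or 1.68-fold lower. A permutation test over libraries, exact and two-sided, gave p = 0.000213.

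A call between the tables was common, with 36.2% of 15233 genes past the threshold and 17.8% called lower in females. Sex, count table and the series of library names coincided, so they cannot be told apart. Cldn5 differed by -0.14 (SE 0.0982, adjusted p = 0.272 in edgeR). Of the 5 neuronal markers, 2 were called higher and 1 lower in females, led by Snap25 (0.45, adjusted p = 3.69e-11 in edgeR). Over all genes, 18.4% were called higher in females.

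**Figure D3:**
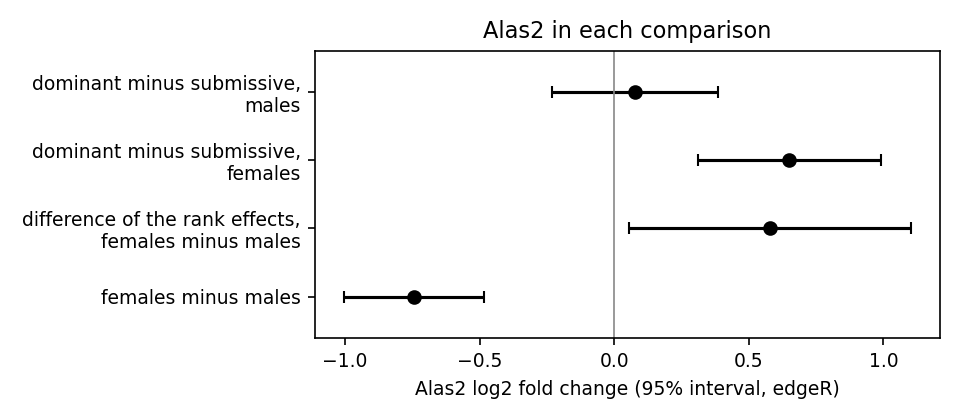
Log2 fold change of Alas2 (horizontal axis) in each comparison, with points for the edgeR estimate and bars for its 95% interval. The interval spans 0 for rank in males, and runs from 0.31 to 0.99 for rank in females and from -1.0 to -0.48 for females against males.

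Alas2 did not pass the test of cage in either sex. An edgeR test of the cage terms beside rank gave an unadjusted p of 0.892 (adjusted p = 0.934 in edgeR) for Alas2 in males, in a comparison where 5.71% of 15304 genes passed the threshold. Cldn5 was among those that passed (adjusted p = 0.00250). In females the same edgeR test gave an unadjusted p of 0.0414 for Alas2 (adjusted p = 0.955 in edgeR), where 0.0725% of 15177 genes passed.

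Male cage mates were not shown to be closer to each other in Alas2 than mice of opposite rank from different cages. They differed by a mean of 0.434 on the log2 scale, against 0.319 over all reassignments of submissive mice to cages (one-sided exact permutation p = 0.929). In females, where every dominant mouse lay above every submissive one, this mean is 0.635 under any assignment of mates, so closeness could not be tested.

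Cldn5 split the males into separate clusters, so no correlation was computed over all 14. Male replicates 1 to 4 had 22.7 to 32.4 CPM of Cldn5 (n = 8) and replicates 5 to 7 had 35.8 to 41.5 CPM (n = 6). Alas2 overlapped between them, with 6.04 ± 1.10 CPM (SD) in replicates 1 to 4 and 6.77 ± 1.69 CPM in replicates 5 to 7.

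Within the clusters and in females, 4 relations of log2 Alas2 with log2 Cldn5 were computed, and none passed the threshold (adjusted p = 0.967 for each Pearson r and 0.713 for each Spearman rho, by exact permutation). In male replicates 1 to 4, Pearson's r was 0.18 (exact p = 0.662) and Spearman's rho 0.24 (exact p = 0.582), and r was 0.19 without the 2 libraries farthest from the median of Cldn5. In male replicates 5 to 7, r was 0.10 (exact p = 0.844) and rho 0.43 (exact p = 0.419), and r was 0.93 without the 2 farthest libraries. There the value turned on single mice: r was 0.95 without Submissive male 5 and -0.32 without Dominant male 6.

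In the 8 females, r was 0.41 (exact p = 0.310) and rho 0.36 (exact p = 0.389). It rose to 0.64 without the 2 farthest libraries and ranged from -0.02 without Dominant female 1 to 0.84 without Dominant female 4. Over the 7 male within-cage differences, r was 0.02 (exact p = 0.967) and rho -0.18 (exact p = 0.713), and r was 0.28 without the 2 farthest cages. At 6 to 8 libraries each, these relations leave wide room for either sign.

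**Figure D4:**
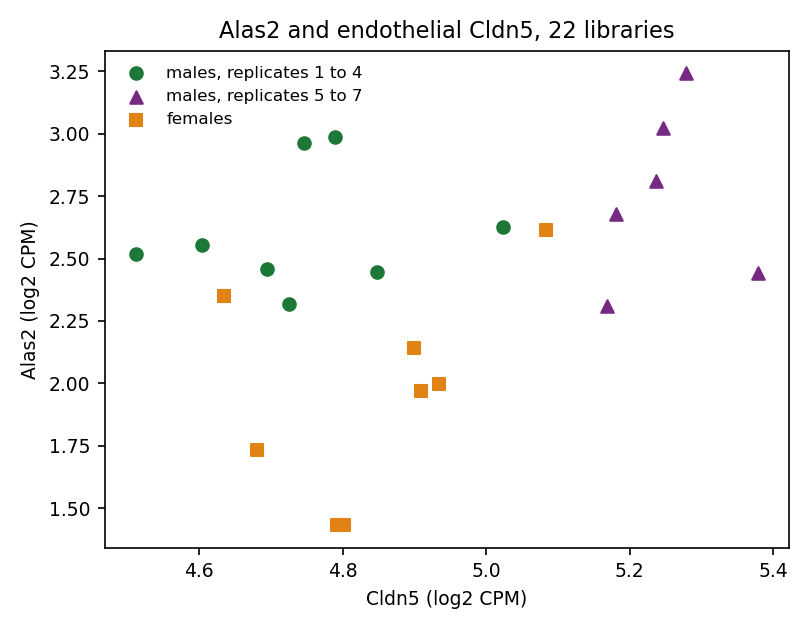
Alas2 (vertical axis) against Cldn5 (horizontal axis), both in log2 CPM, with one point per library for male replicates 1 to 4 (green circles), male replicates 5 to 7 (purple triangles) and females (orange squares). Male replicates 5 to 7 form a cluster of their own in Cldn5, and 6 of the 8 females lie below every male in Alas2.

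Other red cell genes were mostly too low to test. Of 24 further erythroid genes listed, 22 were in the tables and 7 passed the filter in the rank comparisons. Of these 7, 0 passed the adjusted edgeR threshold in either sex, and 0 had an unadjusted p under 0.05. Their median log2 fold change was 0.00 in males and -0.06 in females, against -0.00 over all genes in either sex. The smallest p in females was that of Epor, the erythropoietin receptor, at -0.28 (SE 0.138, adjusted p = 0.501), followed by Tal1, an erythroid transcription factor also present in other cells, at -0.20 (adjusted p = 0.676). Between the tables, 5 of 8 tested had a log2 fold change above 0 and 3 below it, and 4 were called higher in females and 0 lower, where 18.4% of all genes were called higher. Among the 4 were Sptb, the beta spectrin that also occurs in neurons (0.24, adjusted p = 3.17e-06 in edgeR), and Slc25a37, a mitochondrial iron carrier (0.23, adjusted p = 0.0169).

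The 15 erythroid genes with a median below 20 counts, grouped so after their values were seen, summed to 16 to 42 counts per library. Their median sum was 24 counts in dominant males, 28 in submissive males, 27.5 in dominant females and 23 in submissive females, and the groups overlapped in both sexes. Over the tables it was 27.5 in males and 27.5 in females, in raw counts, at median totals of 14166495 and 14379997 counted reads in the male groups and 15663821.5 and 15875616.5 in the female groups.

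Slc4a1, the band 3 anion exchanger of the red cell membrane, had enough counts in each library to be described and was picked out after its values were seen. It had 3 to 6 counts in dominant males (0.278 ± 0.0898 CPM, SD, n = 7) and 4 to 15 in submissive males (0.569 ± 0.237 CPM, SD, n = 7). The submissive male was higher in 6 of 7 cages. In females it had 21 counts over the dominant and 14 over the submissive mice, with the dominant mouse higher in 4 of 4 cages. At these counts it did not pass the filter and was not tested.

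Markers of other blood cells were also low, and were given beside Alas2 as a measure of blood. The 9 neutrophil genes, among them S100a8 and S100a9, summed to 5 to 124 counts per library, with medians of 30 in dominant males, 21 in submissive males, 24 in dominant females and 18 in submissive females. The highest sums were 124 in Submissive male 2 and 73 in Submissive male 6, which also held 112 and 121 Alas2 counts. Dominant male 5, with the most Alas2 (137 counts), had a neutrophil sum of 30. Without Submissive male 2 the rank effect on Alas2 in males was 0.14 (SE 0.150) and without Submissive male 6 it was 0.15 (SE 0.148), neither past the threshold. The 5 platelet genes, among them Pf4 and Ppbp, summed to 3.14 to 4.75 CPM per male library and 2.71 to 4.00 CPM per female library. Between the tables Ppbp, a platelet chemokine, had a log2 fold change of -0.90 in females (SE 0.244, adjusted p = 0.00522 in edgeR), the 1 call among 3 platelet genes tested, where 17.8% of all genes were called lower, and S100a9 one of -1.10 (SE 0.462, adjusted p = 0.0643). Both genes passed the filter in males but not in females, which favours a lower value in females, so these are given as descriptions. None of 7 lymphocyte genes in the tables passed the filter, and their summed level was 0.378 to 1.31 CPM per library. The part of these cells in the Alas2 values was not tested.

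**Figure D5:**
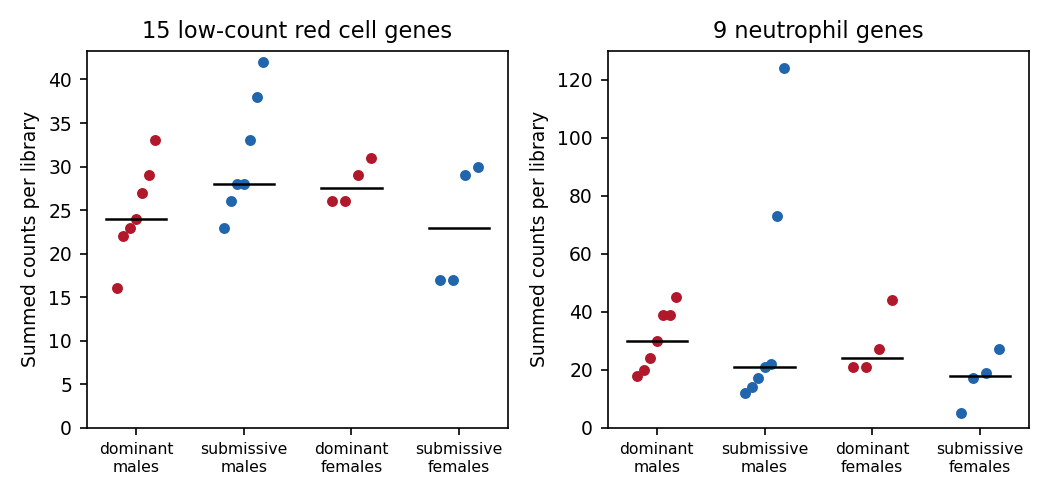
Summed counts per library (vertical axes, from 0) of the 15 low-count red cell genes (left) and the 9 neutrophil genes (right) by group, with one point per library and black lines at the group medians. Red cell sums lie between 16 and 42 in every group, and the neutrophil sums of Submissive male 2 (124) and Submissive male 6 (73) stand highest.

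All 8 other enzymes of haem synthesis passed the filter, and 0 were called by rank in edgeR, as were 0% of all genes in males and 0.0942% in females. In females 7 of 8 had a log2 fold change below 0, with a median of -0.06, and the smallest p was that of Urod, uroporphyrinogen decarboxylase (-0.11, SE 0.0527, adjusted p = 0.457 in edgeR). Alas1, which makes the same product as Alas2, stood at 65.4 ± 2.13 CPM (SD, n = 4) in the dominant females and at 67.9 ± 1.40 CPM (SD, n = 4) in their submissive mates. Between males and females 2 of the 8 were called, both lower in females, where 17.8% of all genes were called lower: Fech, ferrochelatase, which inserts iron into the ring (-0.12, adjusted p = 0.00184 in edgeR), and Urod (-0.13, adjusted p = 0.00325).

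Of 9 tested genes of haem breakdown and iron, 0 were called by rank. Hmox2, the constitutive haem oxygenase, had the smallest p in females (-0.12, SE 0.0400, adjusted p = 0.271 in edgeR). Between males and females 2 were called higher in females, the ferritin chains Fth1 (0.15) and Ftl1 (0.12), a share of 9 genes close to the 18.4% called higher over all genes. Of the globins outside blood, neuroglobin (Ngb) and cytoglobin (Cygb) passed the filter and differed by -0.24 (adjusted p = 0.619) and -0.13 (adjusted p = 0.339 in edgeR) between the ranks in females, neither past the threshold. The 19 endothelial genes had 0 calls by rank, with median log2 fold changes of -0.02 in males and 0.01 in females. Between males and females 2 of the 19 were called higher in females, Slc2a1, the glucose transporter of brain endothelium (0.69), and Ramp2 (0.30), and 0 lower, both smaller shares than the 18.4% and 17.8% over all genes.

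The genes most like Alas2 across the 14 males, by Pearson's r of log2 CPM over 14668 genes tested in both tables, were Rxfp3 (0.85), Nkd2, Slc17a6, Rarres2, Slc25a51, F2r, Pex5, 1110046J04Rik, Ecel1 and Usp29 (0.78). Slc17a6 is the vesicular glutamate transporter of many subcortical neurons and Rxfp3 a receptor for the neuropeptide relaxin-3, and none of the 10 is on the erythroid list. In the 8 females, which did not choose them, the same genes had r from -0.69 to 0.57 with a median of 0.04, equal to the median of 0.04 over all genes, and 6 of 10 were positive. The 7 erythroid genes tested had a median r with Alas2 of 0.32 in males and 0.03 in females, where all genes had medians of 0.01 and 0.04. The 5 neuronal markers had medians of 0.29 in males and 0.47 in females. The 8 haem synthesis enzymes had medians of 0.22 in males and -0.58 in females (1 of 8 positive), and the 9 genes of haem breakdown and iron 0.09 and -0.41 (0 of 9 positive in females). All these values share libraries and depth and are descriptions. They were not adjusted for rank, and Alas2 separated the ranks in females, so the r values there also carry differences by rank.

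The promoter of Alas2 is shown because its row carried the counts. RefSeq promoters (GRCm38.p6, 250 bases before to 50 after the start) were held for 8 of the 11 members. There was no entry for Hbb-bh1, Hbb-b1 or Hbb-b2. Both strands were searched for AGATAA, bound by GATA factors, for CACCC, bound by KLF factors, for the CCAAT box, and for the TATA-like ATAAAA. The GATA motif was found in 3 of 8 members, Hbb-bs, Hbb-bh2 and Alas2, and in 11.18% of 32851 promoters. CACCC was found in 7 of 8 (57.52% of all), CCAAT in 5 of 8 (37.41%) and ATAAAA in 2 of 8 (18.47%). The bases before the start of Alas2 hold AGATAA on the minus strand beginning 86 bases before the start, overlapping ATAAAA on the minus strand at 88, and CACCC on the minus strand at 40, 35 and 30 bases. They are given with these matches in capitals, and a match is a description of letters only.
Alas2, chrX:150547167-150547416, plus strand: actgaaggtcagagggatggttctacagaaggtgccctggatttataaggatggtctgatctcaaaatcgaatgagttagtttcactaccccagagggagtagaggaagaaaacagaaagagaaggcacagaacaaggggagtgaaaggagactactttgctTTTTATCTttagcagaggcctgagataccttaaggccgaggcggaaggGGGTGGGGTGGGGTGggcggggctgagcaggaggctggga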

How the data were processed

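Right-hemisphere total RNA of 22 mice was used. Per the labels and the study's methods, the authors trimmed 85-base single-end reads (cutadapt 1.15), aligned the trimmed reads with STAR 2.6.0a (mm10) and deposited raw counts per gene (featureCounts 1.6.2) without normalization, as a male and a female table with the same 24421 rows, 27 of them named by a date. The strand and multi-mapping settings are not given in the sources used here. Counts were tested with the quasi-likelihood test of edgeR 4.0.16 (R 4.3.3) after TMM scaling and its expression filter (minimum count 10, minimum total 15), with rank as the only term within each sex, 4 group means for the table comparison and interaction, and cage beside rank for the cage tests, with Benjamini-Hochberg adjustment at 0.05. CPM used TMM factors over all 22 libraries, and log2 CPM a prior count of 2. Exon sharing was computed from the exon intervals in the tables. The tests were also run on simulated counts of independent libraries, and the outcome is not given here. The 54 same-group pairs of libraries all differed beyond sampling noise (mean chi-square per gene 1.81 to 16.6).

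The members and lists were chosen with earlier results of these data known. Genes were named by rule: all members, Cldn5, the 2 list members of smallest p, and the 10 genes most like Hbb-bs. Since Hbb-bs was at 0, Alas2 took its place, and the planned globin ratios and correlations could not be computed. Slc4a1, Prl, Gh, Lhb, Tshb and the low-count group fell outside the rule and were chosen after their values were seen, as was the fit of the choroid plexus and pituitary genes without Submissive female 3 or with the block. Pairing came from the shared cage in the library names and the simultaneous sacrifice of cage mates in the study's methods. Deviations from the group means correlated at 0.177 on average for same-numbered males and 0.0239 for females, against -0.0293 and -0.00796 for other pairs. The lowest same-numbered values were -0.0345 in males and -0.0260 in females. Only 1 dominant male and 1 dominant female were closest to their own mate. Alternatives were DESeq2 1.42.0 and its size factors, no filter, library sizes without the members, removal of a loess trend on gene length (span 0.3), the replicate block, all samples in one fit, another prior count, no TMM, and leaving out each library or cage.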

Additional observations from a re-analysis of the deposited data

How the results depend on the processing

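Alas2, the one member tested, had 39 to 137 counts per library, and its results kept their direction and side of the threshold under every alternative run except as follows. Rank in females passed without the expression filter (log2 fold change 0.65, adjusted p = 0.0398 in edgeR), where more genes are tested, and DESeq2 gave no adjusted p for it. Its log2 fold change ranged from 0.52 to 0.77 with each library left out (adjusted p from 0.0796 to 0.431). Rank in males ranged from -0.0329 (without Dominant male 5) to 0.15, the interaction from 0.45 to 0.71, and females against males from -0.82 to -0.70. The cause of these shifts was not tested.

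The relation with Cldn5 turned its sign most often. In male replicates 5 to 7, r ranged from -0.319 (without Dominant male 6) to 0.947, was -0.0458 without Dominant male 5, and was -0.113 with the replicate block (values centred within each cage). In females it ranged from -0.0225 (without Dominant female 1) to 0.835. For the male within-cage differences it was -0.00262 without TMM and ranged from -0.225 (without the cage of replicate 6) to 0.317, with -0.107 without that of replicate 3 and -0.00604 without that of replicate 4.

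The counts over all genes moved more than Alas2. For rank in females, 14 genes became 63 with DESeq2, 84 without the filter, 0 after removal of the length trend, 36 with the replicate block, 8 with both, 0 with all 22 libraries in one fit, and 0 to 77 with a library left out. In that block the log2 fold change of Alas2 was 0.65 (adjusted p = 0.0585), above the threshold as without it, and the block changed no call on Alas2 in males or in the interaction. For cage in males, 874 became 555 after removal of the length trend and 392 to 1829 with a cage left out. For cage in females, 11 became 5 with DESeq2, 99 without the filter, and 3 to 29 with a cage left out. The planned comparisons of the other members with Hbb-bs, and those of the adult globins with Cldn5, were not run because these rows were at 0. The planned correlations of Alas2 with Cldn5 over all 14 males and over male cage means were also left out, a departure from the plan.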

Other observations

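Choroid plexus genes, which mark the secretory epithelium of the ventricles, had the opposite sign to Alas2 in the females' rank comparison. All 7 listed genes, Ttr, Folr1, Kcnj13, Slc4a5, Clic6, Otx2 and Kl, were tested, and 7 of 7 had a log2 fold change below 0 in dominant females (median -0.29, range -0.36 to -0.16). None passed the adjusted edgeR threshold, and 5 had an unadjusted p under 0.05, as did 10.5% of all genes. The smallest p was that of Kl, at -0.36 (SE 0.0787, adjusted p = 0.0867). In males 7 of 7 lay above 0 (median 0.08), with 0 past the adjusted threshold, 2 at an unadjusted p under 0.05 (1.32% of all genes) and Folr1 at 0.37 (SE 0.135, adjusted p = 1.00 in edgeR). Over the 8 female libraries the 7 genes had a median r of -0.75 with Alas2, and over the 14 males -0.09, as descriptions over shared libraries. These r values were not adjusted for rank, and Alas2 separated the ranks in females, so they carry the rank difference given above. Submissive female 3 stood apart in some pituitary hormone genes, with 179 of 208 Prl counts and 62 of 86 Gh counts over all libraries and 99 counts of Pomc against at most 48 elsewhere. Lhb, with 4 counts in that library against at most 5 elsewhere, and Tshb, with 1 against at most 2, did not stand apart. Pomc, the one pituitary gene tested, differed by -0.83 in females (SE 0.343, adjusted p = 0.385 in edgeR) and by -0.23 (SE 0.226, adjusted p = 0.818) without that library, an alternative chosen after seeing the data. Without it the 7 choroid plexus genes remained below 0 in 7 of 7 cases (median -0.20), with 3 at an unadjusted p under 0.05 and Kl at -0.29 (adjusted p = 0.220). With the replicate block Kl was at -0.36 (adjusted p = 0.0690 in edgeR). Mural cell genes had 0 of 9 called by rank in either sex, while between males and females 4 were called lower and 1 higher in females, where 17.8% and 18.4% of all genes were called in these directions, led by Pdgfrb (-0.30, adjusted p = 1.36e-05 in edgeR).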
